A study of Caenorhabditis elegans with 2 samples.

Results

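Of the 2179 nuclear EFL-1 peaks of young adult Caenorhabditis elegans, 494 had their summit away from both kinds of site that held most of the others, and these distal peaks are described here. They were selected on position. The summit lay more than 500 bp from every annotated start of a protein-coding gene and more than 100 bp from every tRNA, snoRNA or snRNA gene. They made up 22.7% of the nuclear peaks (95% Wilson interval 21.0 to 24.5%). Of the rest, 1386 peaks lay within 500 bp of a protein-coding start and are called near-start peaks, and 299 lay at a small RNA gene. The animals were whole hermaphrodites of strain YL479, a single transgenic line that carries EFL-1 fused at its C-terminus to GFP and FLAG, and chromatin was precipitated with an antibody to GFP per the sample descriptions (the antibody label itself names efl-1). Both biological replicates formed 1 group, with no other genotype or treatment, so no condition could be compared. A whole-animal peak list does not tell which tissue held a bound site.

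EFL-1 is the worm counterpart of the E2F transcription factors. E2F proteins bind DNA together with a DP partner at a GC-rich sequence that often follows a run of T, and within the DREAM complex an E2F and DP pair acts beside a pocket protein and the MuvB proteins, which contact a second element called CHR, to hold cell cycle genes down. In the worm gonad EFL-1 and DPL-1 are also known to promote the expression of oogenesis and early embryo genes. Binding is usually described at promoters. In C. elegans many annotated starts are trans-splice sites, where a leader RNA replaces the first part of the transcript, so transcription can begin upstream of the annotated start.

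The sequences below show what lay under 12 strong distal summits, with the strongest of each class of position included. Beyond these, every region shown holds one of the strings listed below. The panel therefore does not tell how often strong summits hold such a string. Some regions with more signal than several of those shown are left out, as described with the processing. Each is 30 bases of the reference WBcel235, the same build as ce11, written from 5′ to 3′ on the named strand. Capitals mark the matched string. These strings were a long E2F string (TTTCCCGC, TTTCGCGC, TTTGCCGC or TTTGGCGC), a short one that lacks the first T, the CHR string (TTCGAA or TTTGAA) and GAGAGA, called the GA repeat below. Where none of the searched strings lay within 100 bp of the summit, the 30 bases are centred on the summit and carry no capitals.
hcp-3, chrIII:9617081-9617110, plus strand: aaaaaccaaatTTTCGCGCttccgcgcgct
zyg-11, chrII:8015559-8015588, minus strand: acagtttttttTTTCCCGCataccgtactg
pqn-42, chrII:2451181-2451210, plus strand: gaatttaaaacTTTGGCGCcggtggccgtg
C07H6.9, chrIII:7498627-7498656, minus strand: ccgccattttgTTTCGCGCgttggctgagt
F53E10.5, chrV:2600763-2600792, minus strand: cttttcgagccTTTCGCGCgcattaatttg
pisy-1, chrII:12739458-12739487, plus strand: aaaatcaaaaaTTGGCGCctaatttttttg
rod-1, chrIV:7477919-7477948, minus strand: aatatagagaaaTTCGCGCctaaaatttgc
acbp-6, chrII:11972465-11972494, plus strand: atttctccgaaTTCGCGCctttctgcgatt
klp-7, chrIII:10807440-10807469, minus strand: gaaaaacaaaatGAGAGAaacttcgcgaaa
slmp-1, chrIV:3212187-3212216, minus strand: aaaatacaaacaTTTGAAtctctgaaaagc
usp-4, chrIV:6756626-6756655, plus strand: aagcaattcgcgggcggagaaaaaaagtgt
C34C12.1, chrIII:3456412-3456441, plus strand: gactttttgcgcgatgcaagcgcgctccac
Each region carries the name of the gene with the next protein-coding start, which says nothing of which gene, if any, is regulated from it. The long E2F string of zyg-11 was centred 3 bp from the summit, that of hcp-3 6 bp, that of pqn-42 8 bp and that of C07H6.9 9 bp. The string was 42 bp away at F53E10.5, and the short strings of acbp-6, rod-1 and pisy-1 were 23, 26 and 28 bp away. The GA repeat of klp-7 was 45 bp away and the CHR string of slmp-1 63 bp. At F53E10.5, acbp-6, rod-1, pisy-1, klp-7 and slmp-1 the summit itself lay outside the 30 bases.

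Most distal peaks lay between genes. The summit was intergenic in 336 (68.0%, 95% Wilson interval 63.8 to 72.0%), in an intron in 110 (22.3%, 18.8 to 26.1%), in an untranslated exon part in 30 (6.07%, 4.29 to 8.54%) and in coding sequence in 18 (3.64%, 2.32 to 5.69%). All nuclear peaks together were intergenic in 72.7%. Near-start peaks were so in 78.8%, a difference of -10.8 points for distal peaks (95% Newcombe interval -15.5 to -6.23), and lay in introns in 12.9%, a difference of 9.35 points (5.43 to 13.6). For a further comparison, the authors' pooled list of 30000 candidate peaks held 19692 that met the same distance rule and overlapped none of the thresholded peaks. Of the distal peaks 3.64% lay in coding sequence, against 21.8% of those weaker candidates, a difference of -18.1 percentage points (-19.6 to -16.0). This share depended on the list, at 7.81% of the distal peaks from replicate 2 alone (5.91 to 10.3%), 4.54% from replicate 1 alone and 1.20% in the stronger 50% of the peaks. The intergenic share was 68.0% among distal peaks and 32.5% among the candidates, a difference of 35.5 points (31.2 to 39.5), and the intron share was 22.3% against 39.1%, a difference of -16.8 points (-20.3 to -12.9). All intervals in this report cover counting error over peaks only, since peaks of the same 2 libraries are not replicates of a condition.

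The distance from summit to the next start, which the rule itself bounded, had a median of 1256 bp, with quartiles of 766 and 2421 bp and a maximum of 20319 bp. Up to 1000 bp there were 190 peaks (38.5%), between 1000 and 2000 bp 154 (31.2%), between 2000 and 5000 bp 118 (23.9%), and beyond 5000 bp 32 (6.48%). The summit lay upstream of the next start in 293 of the 494 distal peaks (59.3%, 54.9 to 63.6%), against 88.5% of near-start peaks and 40.7% of the distal candidates. Upstream positions became less frequent with distance, at 76.8%, 55.8%, 41.5% and 37.5% in the 4 bins from near to far. Peaks in the first bin therefore lay mostly in front of a gene, while beyond 2000 bp most lay downstream of the start they were assigned to.

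**Figure D1:**
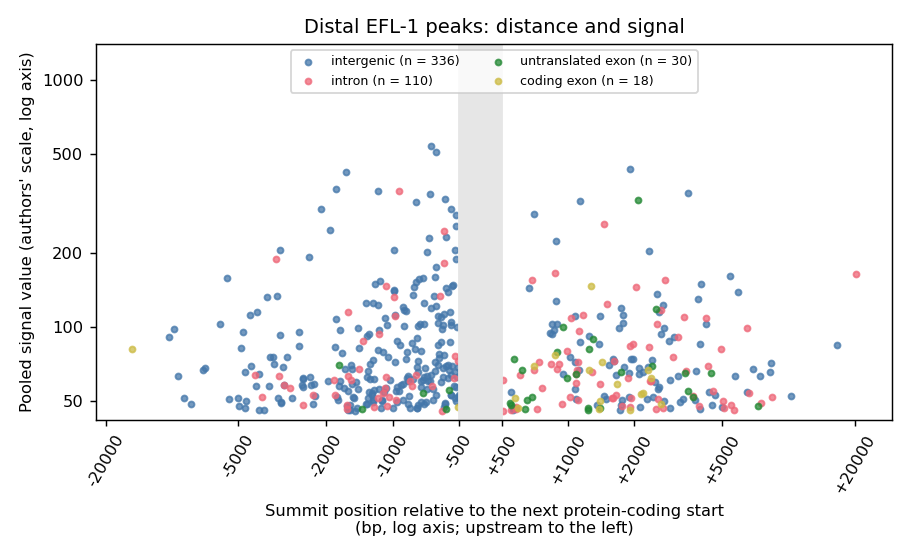
Each point is 1 of the 494 distal peaks, placed by the distance of its summit from the next protein-coding start (bp, log axis, upstream to the left, grey for the excluded 500 bp) and by its pooled signal value on the authors' scale (log axis), coloured by position class. The peaks of highest signal were mostly intergenic (blue), and 293 of 494 lay on the upstream side.

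The 336 intergenic peaks were sorted by the direction of the 2 flanking protein-coding genes. Tandem gaps, with both genes pointing the same way, held 194 (57.7%), divergent gaps 97 (28.9%) and convergent gaps, at which both genes end, 45 (13.4%). The divergent share moved with the distance limit, at 42.7% for 200 bp and 15.3% for 1000 bp. Arrangements were not counted for near-start peaks, candidates or all gaps of the genome, so no preference can be read from these shares. In tandem gaps 148 of 194 summits (76.3%) were upstream of the next start. A tandem gap borders the start of the gene that points away from it and the end of the other, which favours upstream positions. The same share was not counted for near-start peaks or candidates. The gaps were long, with a median of 3180 bp and quartiles of 1613 and 6498 bp. Among the 110 intron peaks, 53 of the 109 that could be given an intron number lay in the first intron (48.6%). The median length of the numbered intron was 2655 bp. Where transcripts differed, the lowest intron number was taken, which favours the first intron. Introns of near-start peaks and candidates were not numbered. The next start belonged to the host gene itself in 99 of 110, and 34 of 110 (30.9%) lay upstream of an internal start of their own host gene, so that a shorter transcript of the gene began beyond the peak.

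Distal peaks were weaker than near-start peaks. The list held the strongest of the pooled candidates, so signal was part of the selection, and the comparison is a description without a test. The pooled signal value had a median of 65.4 in distal peaks (quartiles 52.4 and 98.0, range 45.6 to 541), against 91.0 in near-start peaks, a ratio of 0.718. Small RNA gene peaks had a median of 71.6 (quartiles 58.0 and 94.5), nearer to the distal value, so the lower signal was not particular to distal peaks. Replicate 1 alone gave medians of 40.8 for distal and 59.5 for near-start peaks, a ratio of 0.686, and replicate 2 gave 27.1 and 33.7, a ratio of 0.804. Both replicates had the lower median at distal sites. Their values were taken at the peaks of the pooled list, which was made from the same 2 replicates, so they are not independent of the pooled comparison. Of the 100 strongest nuclear peaks 11 were distal, and of the 1000 strongest 150 (15%) were, below their share of 22.7% in the whole list. By class the median pooled signal was 68.1 for intergenic, 62.0 for intron, 58.7 for untranslated exon and 56.4 for coding exon summits. By distance it was 69.8, 62.8, 63.5 and 63.3 from the nearest bin to the farthest.

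The 20 distal peaks of highest signal had pooled values between 247.3 and 541.1. All 20 were among the strongest candidates of both replicates. Of the 20, 17 were intergenic, 14 were upstream of the next start and 8 lay in a divergent gap. A long E2F string was present in 9 of the 20 and the CHR string in 13. These 20 were chosen by signal, and the counts describe them only.

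The region in front of hcp-3, which encodes the centromeric histone H3 variant CENP-A, lay on chromosome III from 9616993 to 9617224. Its summit was 632 bp upstream of the start, in a divergent gap of 3240 bp shared with hlh-11. Its pooled signal value was 512.9, with 293.4 in replicate 1 and 220.9 in replicate 2, where it ranked 41st and 14th among the nuclear candidates. A further thresholded summit lay 484 bp away. The region of hcp-4, the gene of the inner kinetochore protein CENP-C, was placed much alike on chromosome I, 679 bp upstream of the start in a divergent gap of 1602 bp. Its signal value was 214.7 in replicate 1, 130.1 in replicate 2 and 346.4 pooled. It too held a long E2F string.

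The region of rod-1, which encodes a subunit of the RZZ complex that serves the spindle checkpoint at kinetochores, lay on chromosome IV from 7477801 to 7477992, 545 bp upstream of the start. Its signal value was 154.8 in replicate 1, 143.6 in replicate 2 and 298.9 pooled. The window held the short E2F string and not the long one. The region of klp-7, which encodes the microtubule-depolymerising kinesin-13, was in the first intron of the gene, an intron of 2242 bp, on chromosome III from 10807313 to 10807533. The summit was 931 bp upstream of an internal start of klp-7. Its signal value was 222.6 in replicate 1, 130.3 in replicate 2 and 355.0 pooled, and neither E2F string was found within 100 bp of the summit.

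The summit assigned to zyg-11, the substrate receptor of a CUL-2 ubiquitin ligase needed in meiosis and in the zygote, was 2103 bp upstream of the start on chromosome II, from 8015480 to 8015671, with a signal value of 187.7 in replicate 1, 112.7 in replicate 2 and 299.8 pooled. The summit of par-3, a scaffold of anterior polarity in the zygote, was 516 bp upstream on chromosome III, from 5663631 to 5663821, with 182.4 in replicate 1, 77.3 in replicate 2 and 256.5 pooled. Both held a long E2F string, and so did the region 783 bp upstream of rab-5, the GTPase of early endosomes, with 172.7 in replicate 1, 157.9 in replicate 2 and 321.1 pooled. A region 575 bp upstream of ubr-5, which encodes an E3 ubiquitin ligase, had 328.4 in the pool and the CHR string, without an E2F string.

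The strongest distal peak of all carried none of the 8 searched strings. It lay on chromosome IV from 6756521 to 6756755, 670 bp upstream of usp-4, in a divergent gap of 8738 bp whose other gene is lin-45, the Raf kinase of the worm. Its signal value was 339.7 in replicate 1, 201.7 in replicate 2 and 541.1 pooled, and it ranked 20th and 21st among the candidates of the 2 replicates. Next by signal after hcp-3 was a summit 1909 bp downstream of the start of nlp-40, a neuropeptide gene, in a convergent gap of 646 bp on chromosome I. It had 306.2 in replicate 1, 130.5 in replicate 2 and 437.1 pooled. The summit assigned to slmp-1 was 1621 bp upstream on chromosome IV, from 3212032 to 3212236, with 246.8 in replicate 1, 174.8 in replicate 2 and 423.6 pooled.

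Further down the 20 strongest, the summits of F53E10.5 (361.1 in the pool) and of pisy-1, the phosphatidylinositol synthase gene (356.2), lay 1806 and 1166 bp upstream of their starts. The summits of pqn-42 (347.3), F40E3.3 (324.9) and C07H6.9 (287.1) lay 3489, 1136 and 705 bp downstream. C07H6.9 was in a tandem gap of 915 bp beside cgh-1, the gene of a germline RNA helicase. K12H4.5 (283.1) and rskn-1, which encodes a kinase of the RSK family (247.3), were 517 and 1931 bp upstream, and Y62F5A.9 (261.2) was in its own second intron.

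The strongest summits of the other classes had lower values. In introns, the strongest after klp-7 and Y62F5A.9 was in the first intron of ptpn-22, with 245.2 in the pool. In untranslated exons, the strongest lay in C34C12.2, 2082 bp downstream of the start of C34C12.1, with 242.0 in replicate 1, 82.99 in replicate 2 and 325.2 pooled. Those that followed lay in nra-1 (117.6, with the start of hsp-1, an HSP70 chaperone gene, as the next one) and in rsp-8, an SR splicing factor gene (99.4). In coding sequence the strongest lay in acbp-6, with 79.04 in replicate 1, 66.64 in replicate 2 and 146.1 pooled. It was followed by a summit in the polyketide synthase gene pks-1 on the X chromosome (81.3) and one in lmd-2 (76.9).

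The farthest summit was in intron 11 of gcn-1 on chromosome III, from 2172199 to 2172328, 20319 bp downstream of the nearest start. Its signal value was 100.5 in replicate 1, 68.7 in replicate 2 and 164.3 pooled, and it held a long E2F string and the GA repeat. The other 4 farthest were 16582 bp from the start of aakg-1, an AMP kinase subunit gene (84.6), 15182 bp from C41A3.2 (the pks-1 summit), 10372 bp from ckr-2, a neuropeptide receptor gene (90.7), and 10280 bp from Y46E12A.3 (52.3). At the distance limit, the summits just beyond 500 bp belonged to crn-4, 1 bp past the limit (signal 52.8), and syd-2, at 504 bp (52.0), and those just within it to F38E11.9 at 500 bp (57.6) and rla-1 at 497 bp (63.3). At the signal limit, the lowest members were suex-1 (45.63) and rme-1 (45.68), and the strongest distal candidates left out were next to mca-1 (45.56) and ser-4 (45.52).

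A few genes had several distal peaks. The 494 peaks were assigned to 467 genes, of which 22 had more than 1. The gene aakg-1 had 5, and pqn-41 and ckr-2 had 3 each; these were picked for their counts. The pooled signal values of the 5 peaks at aakg-1 were between 46.4 and 84.6, and none was strong in both replicates as defined below. The pqn-41 peaks were all in the first intron of the gene, 7776 bp long, with pooled signal values of 52.8, 51.8 and 51.8. The ckr-2 peaks lay within about a kilobase of each other, with summits at 2030984, 2031399 and 2031967 on chromosome III and pooled signal values of 63.2, 98.4 and 90.7. A thresholded summit of any kind lay within 1000 bp of 40 of the 494 distal summits, and the median distance to the next one was 10050 bp. The next gene had a near-start peak as well in 70 of 494 (14.2%, 11.4 to 17.5%). The same share over all protein-coding genes was not counted, so this value cannot be called high or low.

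Agreement between the replicates was scored by overlap of at least 1 bp with the 2179 strongest nuclear candidates of each replicate, and such an overlap is called strong. Across all nuclear peaks 69.4% were strong in both replicates. Among distal peaks it was 277 of 494 (56.1%, 51.7 to 60.4%), against 74.5% of near-start peaks, a difference of -18.4 points (-23.3 to -13.5). Replicate 1 had a strong overlap at 385 distal peaks (77.9%), replicate 2 at 361 (73.1%), and neither at 25 (5.06%). The same shares were 91.05%, 81.75% and 1.66% for near-start peaks, and 85.95%, 79.6% and 2.68% for small RNA gene peaks. The distal peaks were also ordered by pooled signal and split into 4 groups of 123 or 124 peaks, and the share went down with signal, at 99.2%, 78.0%, 40.3% and 6.50% from the strongest group to the weakest. By class it was 62.2% for intergenic, 47.3% for intron and 33.3% each for untranslated exon (10 of 30) and coding exon (6 of 18) summits. The rank correlation of the 2 replicates' signal over matched peaks was 0.437 for 488 distal peaks and 0.754 for 1368 near-start peaks, each over peaks of the same 2 libraries and with pooled signal reaching 541 among the distal and 1895 among the near-start peaks.

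**Figure D2:**
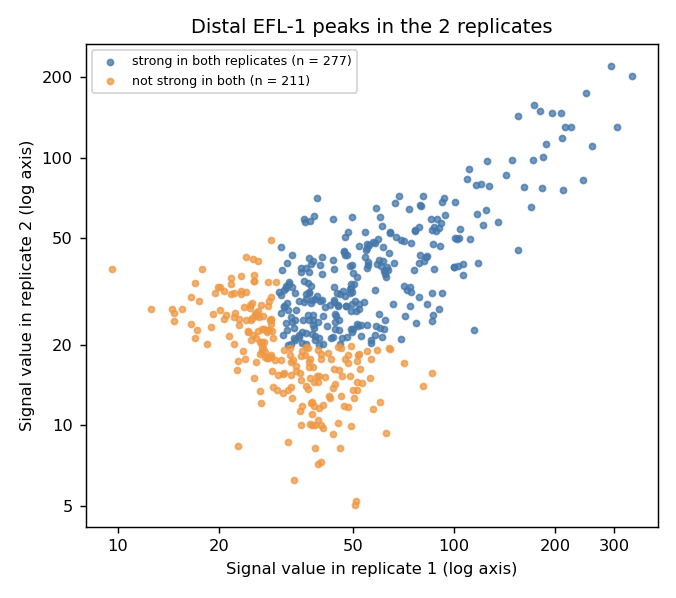
Signal value of the 488 distal peaks matched in both replicates, replicate 1 on the x axis and replicate 2 on the y axis (authors' scale, log axes). The 277 peaks strong in both (blue) run to the upper right, while the 211 others (orange) lie low in at least 1 replicate.

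To compare peaks of like signal, all nuclear peaks were split by pooled signal into 4 equal parts, a split chosen after the values were seen. In the strongest part 66 of 66 distal peaks and 99.6% of 451 near-start peaks were strong in both replicates. In the second part it was 93.1% of 101 distal peaks and 93.8% of 353 near-start peaks, in the third 61.2% of 147 and 65.1% of 295, and in the weakest 15% of 180 and 20.9% of 287. From the strongest part to the weakest the differences were 0.44, -0.70, -3.86 and -5.91 points, and all 4 intervals included 0, the widest reaching from -13.5 to 5.50 points in the third part. Strong overlap and pooled signal come from the same 2 libraries, so these values are a description only.

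The long E2F string lay within 100 bp of the summit in 86 of the 494 distal peaks (17.4%, 14.3 to 21.0%). All nuclear peaks together gave 17.2%, so the distal share was at the level of the whole list. Near-start peaks had it in 19.0%, a difference of -1.64 points (-5.40 to 2.46), small RNA gene peaks in 8.03%, and the distal candidates outside the list in 4.59%, a difference of 12.8 points (9.72 to 16.4). Cut into tiles of the same 201 bp, the nuclear genome had it in 3.17%. The short string, which every long one contains, was present in 30.4% of distal peaks, 34.7% of near-start peaks and 8.89% of the candidates. Its difference between distal and near-start peaks was -4.34 points (-8.99 to 0.52). From the list of replicate 2 alone that difference was -9.22 points (-13.5 to -4.75), and within 50 bp of the summit it was -5.96 points (-10.3 to -1.38), both with intervals that excluded 0. The long string with its letters reversed (CGCCCTTT, CGCGCTTT, CGCCGTTT or CGCGGTTT), which keeps the base composition, was found in 4.45% of distal and 6.35% of near-start peaks. All strings were searched on both strands, and matches of different strings could share bases, as TTTCGCGC and CGCGCG can. In the genome tiles the short string was in 6.30%, the reversed one in 1.20%, CGCGCG in 1.08%, TGATAA in 17.9% and the tRNA B box core described below in 1.53%.

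**Figure D3:**
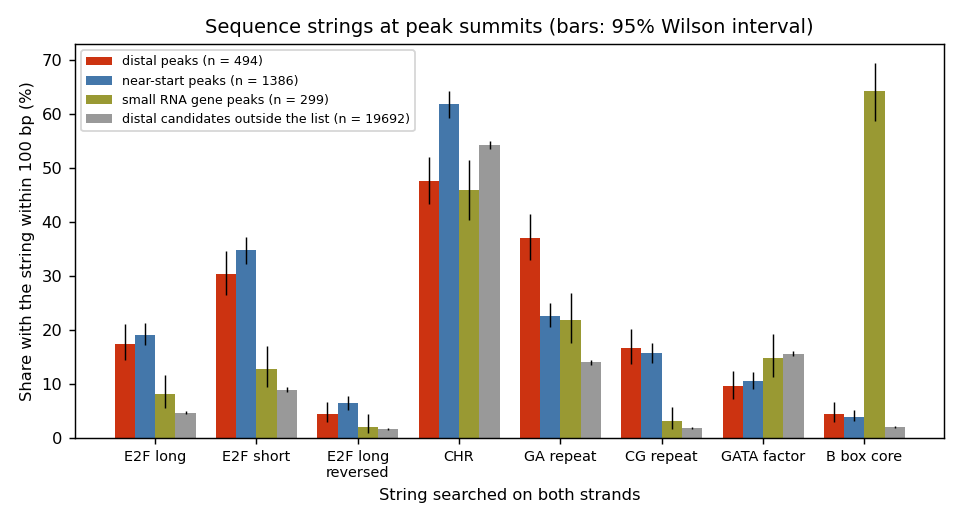
Share of peaks (%) with each string within 100 bp of the summit for the 494 distal, 1386 near-start and 299 small RNA gene peaks and the 19692 distal candidates outside the list, with 95% Wilson intervals. The E2F strings of distal peaks stand near those of near-start peaks and above the candidates, the GA repeat is highest in distal peaks, and the CHR string is lower in distal than in near-start peaks.

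The E2F strings were concentrated at the summit. Distal peaks held 80 long E2F sites within 50 bp of the summit and 8 at 450 to 500 bp, a ratio of 10, and near-start peaks held 250 and 27, a ratio of 9.26. The site share rose with signal, since the long string was present in 30.6% of the strongest of the 4 groups of distal peaks and in 17.9%, 10.5% and 10.6% of the other groups in order. At matched signal, in the 4 parts of the whole list, it was present in 33.3%, 23.8%, 13.6% and 11.1% of distal peaks against 32.8%, 16.1%, 9.49% and 10.8% of near-start peaks, and all 4 intervals of the difference included 0. By class the share was 19.3% for intergenic and 17.3% for intron summits, 2 of 30 for untranslated exons and 0 of 18 for coding exons, where the Wilson interval reaches 17.6%. By distance it was 16.3%, 16.9% and 22.0% in the first 3 bins, with overlapping intervals, and 3 of 32 beyond 5000 bp. In convergent gaps 8 of 45 held it (17.8%, 9.29 to 31.3%).

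The GA repeat was more frequent at distal summits. It was present in 183 of 494 (37%, 32.9 to 41.4%), while all nuclear peaks gave 25.7%. Near-start peaks had it in 22.6%, a difference of 14.5 points (9.74 to 19.3), the distal candidates in 13.9%, a difference of 23.1 points (18.9 to 27.5), and genome tiles in 9.99%. Among intergenic summits only, it was 37.5% in distal and 23.3% in near-start peaks, a difference of 14.2 points (8.60 to 20). Upstream of the next start 43.7% of distal peaks held it and downstream 27.4%, a difference of 16.3 points (7.74 to 24.4). It was in 42.7% of intron summits, 41.8% of tandem and 37.1% of divergent gaps, and 9 of 45 in convergent gaps.

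The GA repeat did not follow signal as the E2F string did. Its share in distal peaks was 26.6%, 41.5%, 49.2% and 30.9% from the strongest group to the weakest. In the 4 parts of the whole list the difference between distal and near-start peaks was 13.6, 6.19, 19.8 and 9.41 points, and the interval included 0 in the second part (-2.85 to 16.4). Distal peaks with the GA repeat had a long E2F string in 12% and distal peaks without it in 20.6%. The median GC content of the 201 bp window was 46.3% with the repeat and 38.3% without it, and the part of base composition in the difference was not tested. Strong overlap in both replicates was found for 56.8% of distal peaks with the repeat and 55.6% of those without it. Within 50 bp of the summit there were 207 matches, which may overlap in a longer run, 248 at 50 to 100 bp and 59 at 450 to 500 bp. The matches were thus not most frequent at the summit itself, and their number stayed above the outer level to about 250 bp on either side.

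**Figure D4:**
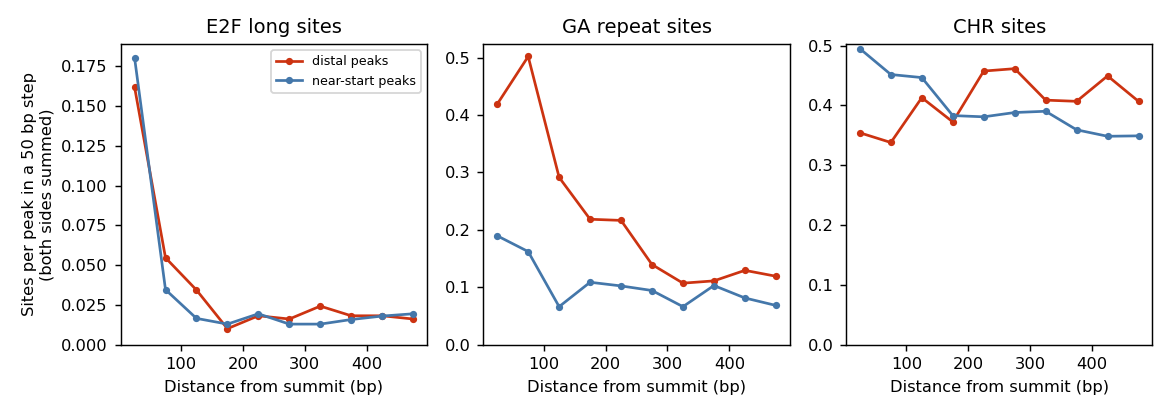
Sites per peak in 50 bp steps of distance from the summit (bp, both sides summed) for the 494 distal peaks (red) and 1386 near-start peaks (blue). Long E2F sites peak within 50 bp in both, GA repeat sites are more frequent in distal peaks and highest at 50 to 100 bp there, and CHR sites are below their outer level at distal summits and above it at near-start summits.

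The CHR string was less frequent at distal summits than at starts. It was present in 235 distal peaks (47.6%, 43.2 to 52.0%), while all nuclear peaks gave 56.4%. Near-start peaks had it in 61.8%, a difference of -14.2 points (-19.2 to -9.08), and genome tiles in 54.8%. Small RNA gene peaks had it in 45.8%, a difference of 1.75 points (-5.40 to 8.84), so the low share was not particular to distal peaks. The distal candidates had it in 54.2%, a difference of -6.62 points (-11.0 to -2.16). There were 175 CHR sites within 50 bp of the distal summits and 201 at 450 to 500 bp, a ratio of 0.871, against a ratio of 1.42 for near-start peaks. The share in distal peaks was 56.5% and 57.7% in the 2 stronger groups and 37.9% and 38.2% in the 2 weaker ones. At matched signal, from the strongest of the 4 parts of the whole list to the weakest, the difference from near-start peaks was -11.0, -3.76, -10.7 and -13.9 points, and the interval excluded 0 in the third and the weakest part. The windows with a CHR string had a median GC content of 37.3% and those without it 44.8%. The part of AT content in these shares was not tested.

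**Figure D5:**
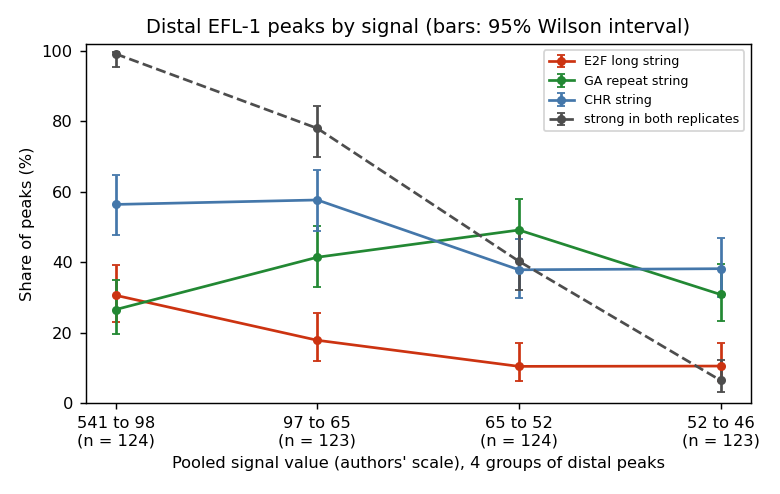
Share of distal peaks (%) with the long E2F, GA repeat and CHR strings and with strong overlap in both replicates, in 4 groups by pooled signal from the strongest to the weakest (123 or 124 peaks each, 95% Wilson intervals). The long E2F share goes down to 10.6% in the weakest group, the GA repeat is highest in the third, and strong overlap in both replicates drops to 6.50%.

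Words of 6 bases were counted without regard to any known site, in the 494 windows of 201 bp and in 988 windows centred 500 bp to either side. Among the 1370 words present in at least 5% of the distal windows, the highest ratios belonged to words made mostly of C and G. CGCGCG was in 16.6% of the windows and 1.52% of the flanks, a ratio of 10.9, GCGCGC in 19.0% and 2.13%, and CGCGCC and GCGCGA each in 19.2% and 2.94%. GGCGCC was in 6.88% and 1.11%. Near-start windows had CGCGCG in 15.6%, close to the distal value, and distal candidates outside the list in 1.71%. GATA-factor sites (TGATAA) were in 9.51% of distal and 10.5% of near-start peaks. The B box core of tRNA promoters (GTTCGANNC) was in 22 distal peaks (4.45%), against 3.90% of near-start peaks and 64.2% of small RNA gene peaks. Of the distal peaks 72 (14.6%, 11.7 to 18.0%) held none of the 8 strings. This was near the 12.8% of near-start peaks and 12.4% of small RNA gene peaks, and below the 27.65% of distal candidates.

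On the X chromosome lay 54 distal peaks (10.9%, 8.48 to 14.0%), against 4.04% of near-start peaks, a difference of 6.89 points (4.17 to 10.1), 44.8% of small RNA gene peaks and 11.5% of the distal candidates. All nuclear peaks together had 11.2% on X, so the distal share was at the level of the whole list. None of the 54 X-linked distal peaks had a near-start peak at the same gene, for which the Wilson interval reaches 6.64%. X held only 56 of the 1386 near-start peaks. The share of all X-linked genes with a near-start peak was not counted, so this result cannot be set apart from the level on X. The strongest X-linked value was 187.5. By chromosome, distal peaks made up 28.2% of the peaks of III, 22.1% of those of IV and of X, 21.7% of I, 21.3% of V and 19.1% of II.

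Some distal summits lay in genes of other kinds. They were inside ncRNA genes in 32 cases, pseudogenes in 7, lincRNA genes in 3 and a miRNA gene in 1, with none in rRNA, piRNA or antisense RNA genes. Such overlaps were not counted for near-start peaks, candidates or the genome, so no preference can be read from these counts. The strongest in ncRNA genes were in T26A5.10, 694 bp upstream of the dynein light chain gene dlc-1 (201.4 in the pool), and in rpr-1, the RNA of RNase P, within the first intron of ints-8, an Integrator subunit gene (165.7). The lincRNA gene linc-128 held 2 summits (133.4 and 95.5), both assigned to the calmodulin gene cmd-1, and the miRNA gene mir-2213 held 1 (57.0). The strongest in pseudogenes were assigned to fbxa-139 (108.4), where the 51 bases at the summit had 4 exact copies in the genome, and tent-5 (93.6). Such exact copies were rare, since 6 distal peaks (1.21%) had more than 1. This compares with 1.44% of near-start peaks, 19.4% of small RNA gene peaks and 0.70% of the distal candidates. Repeats that differ in sequence are not counted in this way. The median share of soft-masked bases was 26.4% in distal and 35.8% in near-start windows, and the median GC content was 40.8% in distal and 38.8% in near-start windows.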

How the data were processed

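The deposited files are peak lists on ce11, per the sample labels, for each of the 2 replicates and for their pool. The list used here is the authors' pooled list thresholded by IDR, which compares peak ranks between lists. It held the strongest of the pooled candidates by signal. A place in it did not require a strong overlap in each replicate, since 25 distal peaks had none in either. Each peak has a summit offset, which the authors deposited as another number (bp from the peak's start), and a signal value on a scale the authors did not state. Its deposited −log10 q-value was 3.70 for every peak of the thresholded list, so signal alone ranked the peaks. The sources used here do not name an aligner, a peak caller or an IDR threshold. Without read counts in the lists, the depth of the libraries is unknown. The control library and the ce10 lists were not used here. The 28 mitochondrial peaks were left out.

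Summits were compared with the Ensembl 115 annotation of WBcel235, and sequence was read from the RefSeq copy of the same build. A summit in several classes was given the first of coding exon, untranslated exon and intron that applied. Strings were searched within 100 bp of the summit. Shares have 95% Wilson intervals and differences 95% Newcombe intervals, and no significance test was run, because the rule used position and signal and the design has 1 group. Regions named are the 20 strongest, the 3 strongest of each class, the 5 farthest from a start, the 2 on each side of the distance limit, the 2 weakest, and the 2 strongest in each noncoding biotype. No sequence is given for regions on chromosome I. Among the 20 strongest, this leaves out nlp-40, hcp-4, ubr-5, F40E3.3, rab-5 and rskn-1. The members, strings and lists were chosen with earlier results of these data known. The scripts were tested on simulated data and ran in Python 3.11.15 with pandas 2.3.3, numpy 2.4.6, scipy 1.17.1 and matplotlib 3.10.9.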

Additional observations from a re-analysis of the deposited data

How the results depend on the processing

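The number of distal peaks was 494 with the 500 bp limit, 988 with a limit of 200 bp, 304 with 1000 bp, and 167 among the stronger 50% of the peaks; the share of 22.7% was 45.3%, 14.0% and 15.3% under those settings, 25.2% with only the outermost start of each gene and 17.7% with starts of every biotype. The intergenic share of 68.0% was 75.2% at 200 bp, 61.7% with outermost starts and 77.2% in the stronger 50%. The median distance of 1256 bp was 500.5, 1966, 1487, 1092 and 1142 bp for 200 bp, 1000 bp, outermost starts, every biotype and the stronger 50%. Strong overlap in both replicates (56.1%) was 64.4% at 200 bp, 50.7% at 1000 bp and 95.8% in the stronger 50%. The long E2F share (17.4%) was 27.5% in the stronger 50%, 13.2% in a window of 50 bp and 22.3% in one of 250 bp, and the GA repeat share (37%) was 31.2% at 200 bp, 29.3% in the stronger 50%, 22.7% and 50% in the 2 windows. The X share (10.9%) was 7.79% and the median GC content (40.8%) 39.8% at 200 bp. The divergent share (28.9%) was 42.7% at 200 bp and 15.3% at 1000 bp.

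The difference in the long E2F share between distal and near-start peaks, -1.64 points, had no stable sign. It was 1.5 points with starts of every biotype and 2.05 in the stronger 50%. From the list of replicate 1 alone it was 0.023 points, and from replicate 2 alone -5.86 points, with an interval of -9.30 to -2.15. The differences in the GA repeat and CHR shares kept their sign, with intervals that excluded 0, under each alternative run. With either replicate alone, the distal peaks numbered 507 to 589, the share was 23.3 to 27.0%, the intergenic share 62.1 to 66.5% and the median distance 1247 to 1362 bp. The signal ratio of 0.686 to 0.804 used each replicate's signal at the peaks of the pooled list, as in the main text. The coding exon share of 3.64% was 4.54 to 7.81% with either replicate alone and 1.20% in the stronger 50%. The short E2F difference of -4.34 points was 2.67 points (-2.32 to 7.94) with starts of every biotype. The causes of these shifts were not tested. No paired analysis was possible because there was 1 group.

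Depth is not known from peak lists, and signal cannot be turned into reads. Classes of 18 and 30 peaks have wide intervals. All shares rest on 2 libraries of 1 tagged strain, and the annotation decides which summit counts as distal.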
